A study of Mus musculus with 16 samples.

Results

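The 10 genes described here belong to the extracellular matrix and were followed through mammary tumors with and without a gene trap in *Resf1*. They are *Eln*, *Fbn1*, the fibulin genes *Fbln1*, *Fbln2*, *Fbln5*, *Efemp1* and *Efemp2*, the cross-linking enzymes *Lox* and *Loxl1*, and the matrilin gene *Matn2*. These 10 genes were taken by symbol from a table of 23609 genes, and all 10 had a mean value of at least 10, the filter on low values. The members were chosen by measured values of these tumors: *Fbln5* and *Matn2* stood among the 5 genes with the smallest p of an epithelial-to-mesenchymal transition (EMT) list when the genotypes were first compared in these tumors, and the other members were added as the rest of the elastic fiber family. The genotype difference is therefore given below as a description, with no test, for every member.

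Both groups carried the MMTV-PyMT transgene, in which the polyoma middle T antigen drives tumor formation in mammary epithelium from a viral promoter. Animals with the gene trap were described as *Resf1* +/-, so 1 allele was left intact, and came from a C57BL/6 line crossed to FVB mice with the transgene. A lentiviral construct in the first exon of *Resf1* makes an EGFP-Cre fusion and shortens the *Resf1* message. The wildtype animals were littermates, received no treatment and had the transgene but not the trap. Tumors were collected when the animals reached the humane endpoint, and their age is not given in the sources used here. The comparison addressed whether less *Resf1* alters EMT-type programs in tumors that differ in metastasis. Values came from 5 wildtype and 5 gene trap tumors of the 8 labelled per group. Each tumor is a whole piece of tissue in which several cell types were measured together, so fewer cells of a type and less RNA per cell cannot be told apart.

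Elastic fibers give tissues recoil. Their core is cross-linked elastin, laid down on a scaffold of fibrillin microfibrils, and the fibulins bring tropoelastin, the microfibril and the lysyl oxidases together so that the elastin can be cross-linked. In the mammary gland most of these proteins are made by stromal fibroblasts and by cells around vessels and ducts. Matrilins are adaptor proteins that link matrix filaments and are not themselves part of the elastin core.

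The study also examined G-quadruplexes, 4-stranded structures that guanine runs can form, as partners of the RESF1 protein, so here the sequences just upstream of the genes were searched for such runs. A match was 4 runs of at least 3 G separated by 1 to 7 bases, on either strand. The paper proposes that RESF1 is mainly associated with quadruplexes in transcribed sequences and not with those of control elements. It also reports that the quadruplexes predicted at its top sites were enriched for those with fewer guanine layers than this motif requires. RefSeq promoter windows on build GRCm38.p6 were found for 6 of the 10 genes (10 windows, each cut to the 250 bases before the start), and none was found for *Eln*, *Lox*, *Loxl1* and *Matn2*. The motif lay in 1 of the 10 windows, that of *Fbn1* at chr2:125506439-125506688 on the minus strand, and 16.7% of all 32851 windows of that length hold it. The window of *Fbn1* is shown because it holds the match, in capitals, and the first window of *Fbln5*, at chr12:101819120-101819369 on the minus strand, because that gene differed most among the fibulins.
*Fbn1*: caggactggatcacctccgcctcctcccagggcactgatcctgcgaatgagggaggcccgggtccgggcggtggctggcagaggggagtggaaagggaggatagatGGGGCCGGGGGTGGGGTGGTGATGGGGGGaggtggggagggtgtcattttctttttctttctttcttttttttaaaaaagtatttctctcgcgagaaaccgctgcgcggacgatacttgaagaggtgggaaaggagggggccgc
*Fbln5*: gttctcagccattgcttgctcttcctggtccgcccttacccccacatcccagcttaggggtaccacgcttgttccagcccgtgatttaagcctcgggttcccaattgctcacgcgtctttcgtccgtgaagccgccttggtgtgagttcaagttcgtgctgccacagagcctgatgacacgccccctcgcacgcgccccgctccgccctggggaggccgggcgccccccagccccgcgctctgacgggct
The *Fbln5* window shown had a GC content of 65.2% and the *Fbn1* window 59.2%, against a median of 52.4% over all windows. That *Fbln5* window held 2 matches to the GC box GGGCGG on either strand and the *Fbn1* window 1, and 32.7% of all windows hold at least 1. The second *Fbln5* window, which is not shown, had a GC content of 49.6% and 0 matches to the GC box. The GC box of the *Fbn1* window does not overlap the capitals. Of 3 other motifs searched on both strands, the TATA box TATAAA (in 12.4% of all windows) and the TEAD site GGAATG (12.6%) were in 0 of the 10 windows and the AP-1 site TGANTCA (6.75%) was in 1, that of *Efemp1*. A match is a run of letters and was not shown here to fold or to bind a protein.

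The same search was made in the longest protein-coding transcript of each gene in GENCODE mouse release 21. Transcripts of 3 of the 10 genes matched on either strand (*Eln*, *Fbn1* and *Loxl1*). Among 10548 tested protein-coding genes with transcripts within the length range of the members, 45.7% matched. Matches on both strands were found in 2 of the 10 members (20%) and in 11.4% of those genes. The transcripts of *Fbln5* (5829 bases) and *Matn2* (3577 bases) held no match on either strand. Shorter G runs were not searched, so the search does not tell whether these transcripts hold the kind of site that the paper reports.

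The targeted gene was measured first. *Resf1* was at 4215, 4397, 3881, 4487 and 3517 normalized units in wildtype tumors 1 to 5 and at 4029, 3066, 3686, 3392 and 3409 in gene trap tumors 1 to 5. The ranges overlapped, with 3 gene trap tumors below the lowest wildtype tumor. On the log2 scale *Resf1* was 0.22 lower in gene trap tumors (log2 difference of -0.22, SE 0.09), which limma gave an unadjusted p of 0.0313 and an adjusted p of 0.9997, and the exact permutation test over 252 arrangements a two-sided p of 0.0635. The labelled tissue was checked by its luminal markers. *Epcam* and *Krt18*, genes of glandular epithelium, had mean values of 22261 and 23640, and the least abundant of the 9 luminal markers, *Cldn7*, had a mean of 2544.

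Across the whole table the genotypes differed little, gene by gene, relative to the spread between tumors. For tumors of this cross the paper reports less *Resf1* message by quantitative PCR. It also reports suppressed EMT programs from an analysis of gene sets, which is another measure than the tests of single genes used here. Limma called 0 of 21034 tested genes (0%) at an adjusted p under 0.05, and 479 genes (2.28%) had an unadjusted p under 0.05. Of these 479 genes, 201 were lower in gene trap tumors, which is 0.956% of all tested genes. Values had been scaled before deposition, so the depth of each tumor is unknown. Column totals ranged from 31995100 to 42153600, the highest in gene trap tumor 2, and gene trap tumor 1 had the highest level of fibroblast markers. Without gene trap tumor 2 the log2 differences described next were -0.38 for *Fbln5* and -0.48 for *Matn2*, and without gene trap tumor 1 they were -0.50 and -0.57.

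*Fbln5*, whose protein binds tropoelastin, *Loxl1* and cell surface integrins and is needed to assemble elastic fibers, was lower in gene trap tumors (-24.6% of its wildtype mean). It was measured at 510, 709, 485, 801 and 646 in wildtype tumors and at 614, 429, 551, 383 and 398 in gene trap tumors. Of the gene trap tumors 3 lay below the lowest wildtype tumor and 3 wildtype tumors above the highest gene trap tumor, while the others overlapped. The means were 630 ± 133 and 475 ± 102 (SD, n = 5 each), a log2 difference of -0.41 (SE 0.17). Leaving out 1 tumor at a time gave log2 differences between -0.50 and -0.31, the smallest in size without wildtype tumor 4.

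*Matn2*, which encodes matrilin-2, a filament-forming adaptor of the extracellular matrix, was lower by -32.2%. Its values were 601, 1110, 525, 980 and 582 in wildtype tumors and 622, 486, 533, 498 and 435 in gene trap tumors. Wildtype tumors 2 and 4 were far above all others, and the remaining wildtype tumors lay within the gene trap range. The means were 760 ± 266 and 515 ± 69.5 (SD, n = 5 each), a log2 difference of -0.50 (SE 0.20). With 1 tumor left out the log2 difference lay between -0.62 and -0.35, the smallest without wildtype tumor 2.

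For the core and scaffold genes the groups covered more of the same range. *Eln*, the gene of tropoelastin, was at 2803, 2364, 3158, 3050 and 2709 in wildtype tumors and at 3004, 2504, 2422, 2605 and 1871 in gene trap tumors. Only gene trap tumor 5 was below the wildtype range, and the log2 difference was -0.19 (SE 0.12). *Fbn1*, the gene of fibrillin-1 and so of the microfibril scaffold, was at 7093, 5775, 7308, 5323 and 10987 in wildtype tumors and at 12902, 5310, 7235, 6937 and 5895 in gene trap tumors. Wildtype tumor 5 and gene trap tumor 1 were high and the other 8 lay close together. The log2 difference of *Fbn1* was 0.04 (SE 0.24) and became -0.16 without gene trap tumor 1.

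Among the other fibulins the groups overlapped and each log2 difference was smaller than its standard error. *Fbln1* and *Fbln2*, fibulins of basement membranes and elastic fibers, had log2 differences of 0.17 (SE 0.19) and -0.10 (SE 0.12). *Fbln1* ranged from 284 to 387 in wildtype and from 278 to 626 in gene trap tumors, and its difference was -0.01 without gene trap tumor 1, the tumor at 626. *Efemp2*, which encodes the fibulin that brings *Lox* to tropoelastin, was the steadiest member, from 836 to 1186 in wildtype and from 955 to 1095 in gene trap tumors, with a log2 difference of 0.03 (SE 0.10). *Efemp1*, an elastin-related fibulin of connective tissue, varied the most, from 143 to 506 and from 203 to 467, and its log2 difference of -0.09 had an SE of 0.35.

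The cross-linking enzymes differed least. *Lox*, the copper-dependent oxidase that starts the cross-links of elastin and collagen, ranged from 612 to 1605 in wildtype and from 805 to 1565 in gene trap tumors. *Loxl1*, its relative that acts on elastin, ranged from 444 to 721 and from 468 to 731. Their log2 differences were 0.02 (SE 0.24) and -0.02 (SE 0.16), and both groups of each gene covered nearly the same values.

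**Figure D1:**
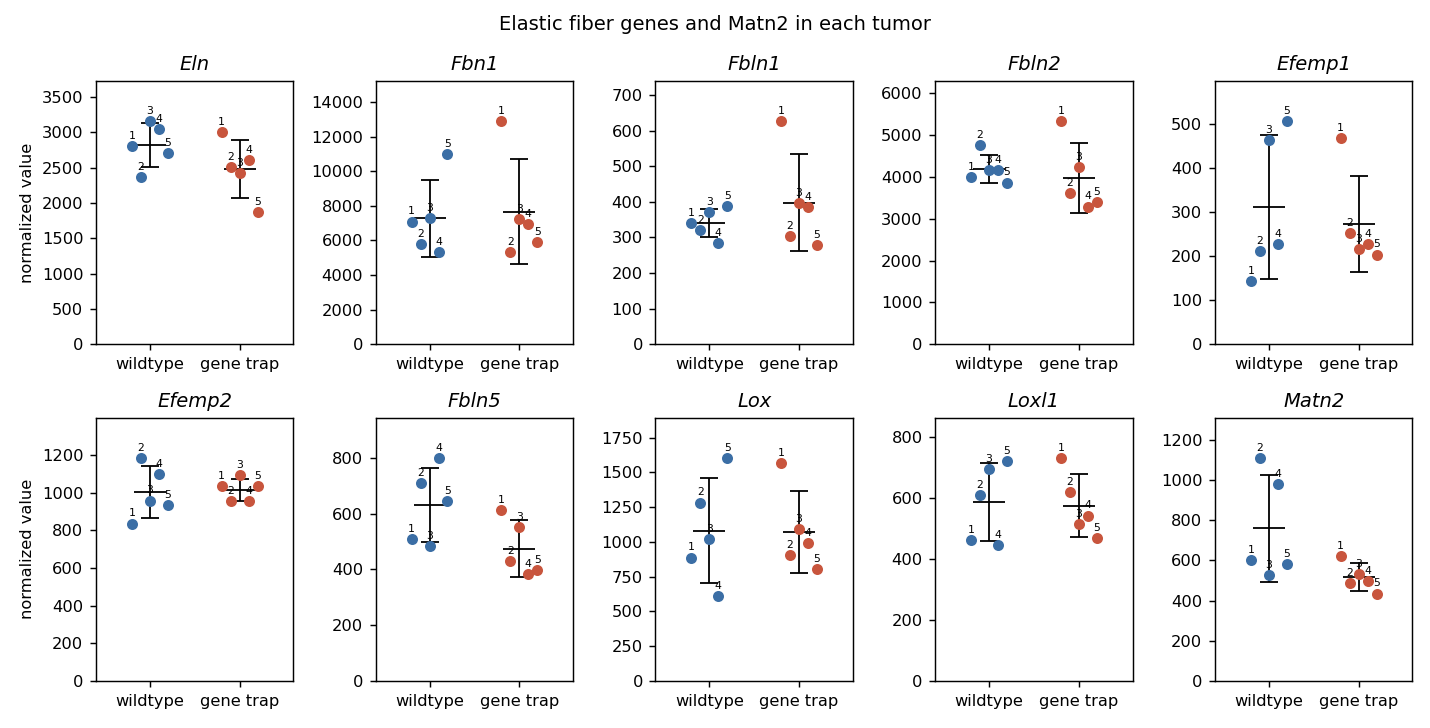
Normalized value (vertical axis, from 0) of each gene in 5 wildtype and 5 gene trap tumors, with 1 point per tumor, the tumor's replicate number above it, and a bar for the mean ± SD. Gene trap tumor 1 is the highest of the gene trap tumors for every gene but *Efemp2*, and the 5 gene trap points of *Fbln5* and of *Matn2* lie below the highest wildtype points while overlapping the others.

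In all, 6 of the 10 members were lower in gene trap tumors, beside 48.6% of all tested genes. The median log2 difference of the members was -0.06 beside 0.00 over all tested genes. *Fbln5* and *Matn2*, chosen by this same contrast, are among the 6, so the count and the median are not independent of that choice. Of the others, *Eln* (-0.19), *Fbln2* (-0.10), *Efemp1* (-0.09) and *Loxl1* (-0.02) were lower. *Fbln1* (0.17), *Fbn1* (0.04), *Efemp2* (0.03) and *Lox* (0.02) were higher. The groups did not overlap for 0 of 10 members and for 0.528% of tested genes. Over the 21 alternative settings that were run, *Fbln5*, *Matn2*, *Fbln2* and *Eln* were lower in gene trap tumors in all 21. *Fbln1* was higher in all but the fit without gene trap tumor 1. All settings reuse the same tumors, and those with another filter, no variance trend or the replicate block cannot change a log2 difference. The count of settings is therefore not independent support for a direction.

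**Figure D2:**
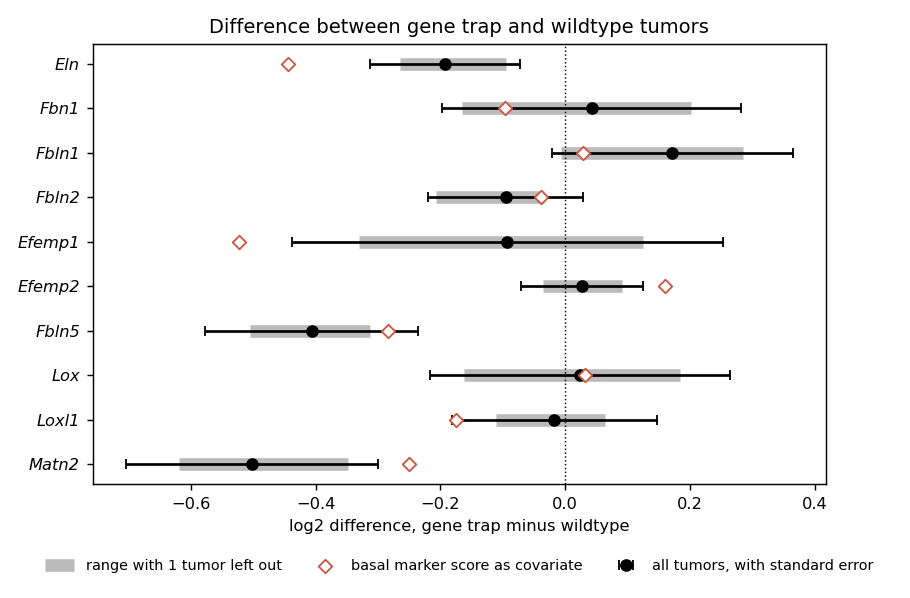
Log2 difference, gene trap minus wildtype (horizontal axis), for each gene, with its standard error from limma as a black bar, the range of the fits that leave out 1 tumor in gray, and the value with the basal marker score as a covariate as an open diamond. *Fbln5* (-0.41), *Matn2* (-0.50), *Fbln2* and *Eln* lie left of 0 in each of these fits. The standard error bars of *Fbn1*, *Fbln1*, *Fbln2*, *Efemp1*, *Efemp2*, *Lox* and *Loxl1* span 0.

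Markers of other cells were set beside these differences. Basal epithelial markers, of which 7 of 7 were measured (most abundant *Krt14* at a mean of 1867 and *Krt5* at 964, keratins of the outer duct layer, and least abundant *Cdh3* at 174), summed to between 4993 and 6480 in wildtype and between 3987 and 6040 in gene trap tumors. Their mean z score was 0.30 ± 0.40 in wildtype and -0.30 ± 0.38 in gene trap tumors (SD, n = 5 each). With that score as a covariate the log2 difference was -0.28 (SE 0.23) for *Fbln5* and -0.25 (SE 0.25) for *Matn2*, both smaller than without it, and -0.44 (SE 0.12) for *Eln*, larger than without it. Fibroblast markers (12 of 12 measured, led by the collagen genes *Col3a1* at a mean of 34315 and *Col1a2* at 16922, with *Fap* the lowest at 221) summed to between 55286 and 123826 in wildtype and between 77343 and 163808 in gene trap tumors. With the fibroblast score as a covariate the log2 differences were -0.42 (SE 0.18) for *Fbln5* and -0.47 (SE 0.21) for *Matn2*.

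Apart from genotype, the members could be compared by how they varied between tumors of the same genotype, which was not used to choose them. Deviations from the group mean were correlated over the 10 tumors, with exact two-sided p-values from all 14400 orders of the tumors within groups. Beside each p stands the p adjusted over all tested genes for the same score. With the fibroblast score, *Fbn1* had a Pearson r of 0.93 (exact p = 0.000764, adjusted p = 0.236) and a Spearman rho of 0.90 (exact p = 0.00229). *Fbln1* had r = 0.85 (exact p = 0.000556, adjusted p = 0.205) and rho = 0.85 (exact p = 0.0016). *Lox* had r = 0.85 (exact p = 0.00819, adjusted p = 0.371) and rho = 0.78 (exact p = 0.012). All 3 were highest in gene trap tumor 1 or wildtype tumor 5, which also had the highest fibroblast scores.

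*Loxl1* and *Efemp1* followed, with r = 0.83 (exact p = 0.00514, adjusted p = 0.339; rho = 0.73, exact p = 0.0215) and r = 0.80 (exact p = 0.0169, adjusted p = 0.442; rho = 0.54, exact p = 0.123). In total 5 of the 10 members had an unadjusted exact p under 0.05 with this score, where 9.17% of tested genes did. No tested gene passed after adjustment over all genes (0%, smallest adjusted p of 0.187). The relation rested in part on extreme tumors. Without the 2 tumors farthest from the median score, r was 0.68 for *Fbn1*, 0.60 for *Fbln1*, 0.64 for *Lox*, 0.69 for *Loxl1* and 0.49 for *Efemp1*.

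The remaining 5 members had an exact p above 0.05 with the fibroblast score. *Fbln2* had r = 0.48 (exact p = 0.175, adjusted p = 0.699) and *Eln* r = 0.40 (exact p = 0.26, adjusted p = 0.763). *Fbln5*, *Efemp2* and *Matn2* had r of 0.12, -0.26 and -0.27 (exact p of 0.751, 0.519 and 0.497, adjusted p of 0.948, 0.879 and 0.873). For *Fbln5* the sign depended on 1 tumor: r was -0.40 without gene trap tumor 1 and -0.68 without the 2 farthest tumors. For *Matn2* r was -0.71 without the 2 farthest tumors or without gene trap tumor 1 and -0.0019 without wildtype tumor 4.

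**Figure D3:**
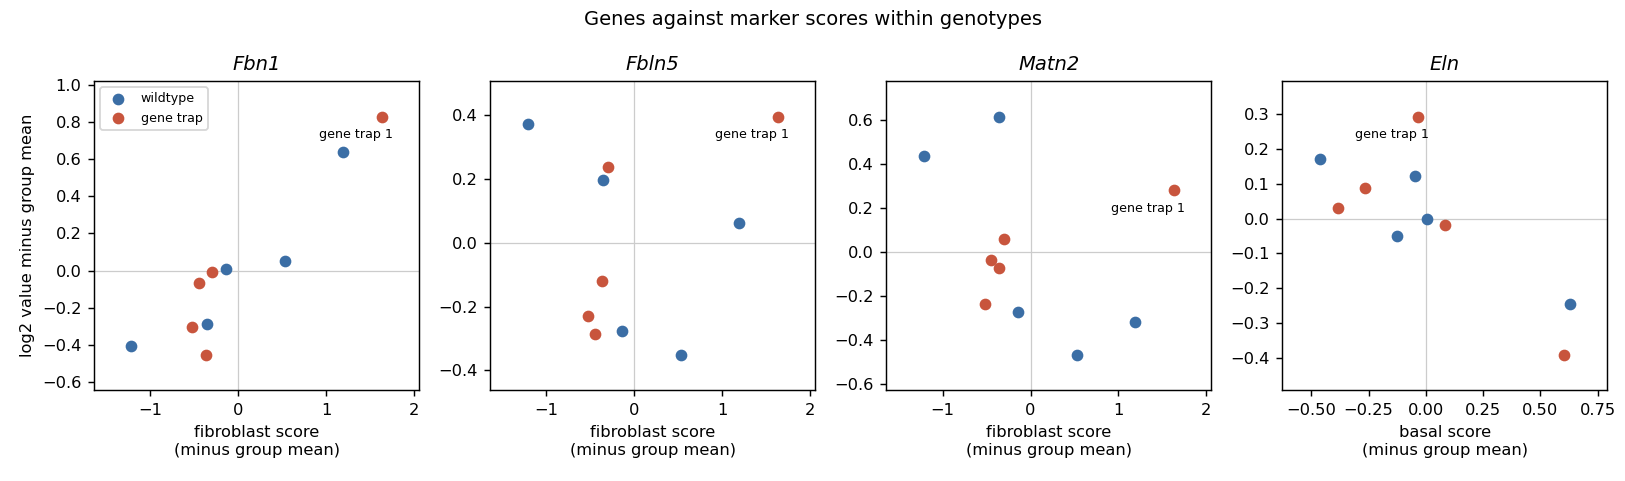
Log2 value minus the group mean (vertical axis) against a cell type score minus its group mean (horizontal axis) for 4 genes, with 1 point per tumor, blue for wildtype and red for gene trap. *Fbn1* rises along the fibroblast score (r = 0.93) with gene trap tumor 1 at the far right, *Fbln5* (r = 0.12) and *Matn2* (r = -0.27) scatter, and *Eln* falls along the basal score (r = -0.78).

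Other cell types were compared in the same way, which made 70 pairs of a member and a score, of which 14 had an unadjusted exact p under 0.05. *Lox* and *Fbn1* correlated with the endothelial score, at r = 0.82 (exact p = 0.00688, adjusted p = 0.42) and r = 0.70 (exact p = 0.0344, adjusted p = 0.465). *Efemp1* correlated with the macrophage score at r = 0.86 (exact p = 0.00757, adjusted p = 0.80). With the adipocyte score *Efemp1* had r = 0.83 (exact p = 0.0126, adjusted p = 0.962), *Loxl1* r = 0.77 (exact p = 0.0262, adjusted p = 0.9993) and *Eln* r = 0.72 (exact p = 0.0319, adjusted p = 0.9993), and without the 2 farthest tumors these were 0.88, 0.69 and 0.30. *Eln* was negatively correlated with the basal score, with r = -0.78 (exact p = 0.0165, adjusted p = 0.966). Its Spearman rho was -0.64 (exact p = 0.0749), and r was -0.80 without the 2 farthest tumors (exact p = 0.0799). No other member had an unadjusted exact p under 0.05 with the basal score. The shares of all tested genes with an unadjusted exact p under 0.05 were 10.2% for the endothelial, 4.9% for the macrophage, 4.79% for the adipocyte, 4.11% for the basal and 7.43% for the perivascular score, with which 0 members had such a p. *Fbn1* and *Fbln1* were negatively correlated with the luminal score (r = -0.70 and -0.63, exact p of 0.0298 and 0.0436, adjusted p of 0.279 and 0.315), where the share was 15.4%.

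The members were also compared with each other. The sets of genes named together here were chosen after their values were seen, and no grouping was tested. Of the 45 pairs, 37 had a positive r and 12 an unadjusted exact p under 0.05, and 0 passed adjustment over all tested genes. The share of the other 21033 tested genes with an unadjusted exact p under 0.05 was 13.6% for *Fbn1*, 8.6% for *Fbln1*, 7.14% for *Lox*, 5.08% for *Loxl1* and 5.16% for *Efemp1*. It was 2.42% for *Eln*, 2.71% for *Fbln2*, 3.4% for *Fbln5*, 4.41% for *Matn2* and 5.87% for *Efemp2*. *Fbn1* and *Fbln1* had r = 0.90 (exact p = 0.000347, adjusted p = 0.151 from *Fbn1*; 0.79 without gene trap tumor 1), *Efemp1* and *Loxl1* r = 0.87 (exact p = 0.00653, adjusted p = 0.774 from *Efemp1*) and the oxidases *Lox* and *Loxl1* r = 0.82 (exact p = 0.0101, adjusted p = 0.582 from *Lox*). Among the 10 pairs of *Fbn1*, *Fbln1*, *Lox*, *Loxl1* and *Efemp1*, r ranged from 0.62 to 0.90, from 0.41 to 0.82 without gene trap tumor 1, and from 0.12 (*Efemp1* and *Fbn1*) to 0.88 without the 2 tumors farthest from the median of one gene of the pair.

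*Fbln5* and *Matn2* had r = 0.77 (exact p = 0.016, adjusted p = 0.9999 from *Fbln5*) and rho = 0.72 (exact p = 0.0229), and r was 0.76 without gene trap tumor 1 and 0.76 without the 2 tumors farthest from the median of *Fbln5*. Without those 2 tumors, however, r of *Fbln5* was 0.88 with *Lox* (0.24 over all tumors) and 0.65 with *Fbln1* (0.35 over all tumors), so the order of the genes by likeness to *Fbln5* depends on them. Of the wildtype tumors, numbers 2 and 4 were the highest and number 3 the lowest for both genes. *Fbln5* had r = 0.72 with *Fbln2* (exact p = 0.0174, adjusted p = 0.9999) and r = 0.68 with *Efemp2* (exact p = 0.0446, adjusted p = 0.9999). *Efemp2* and *Matn2* had r = 0.78 (exact p = 0.0517, adjusted p = 0.835 from *Efemp2* and 0.98 from *Matn2*). *Fbln2* and *Matn2* had r = 0.56 (exact p = 0.00444, adjusted p = 0.9999 from *Fbln2* and 0.98 from *Matn2*) and rho = 0.44 (exact p = 0.0808). Between *Fbln5* and *Fbn1* r was 0.25 (exact p = 0.50). Of the 21033 other tested genes, *Matn2* ranked 106 by its r with *Fbln5*.

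**Figure D4:**
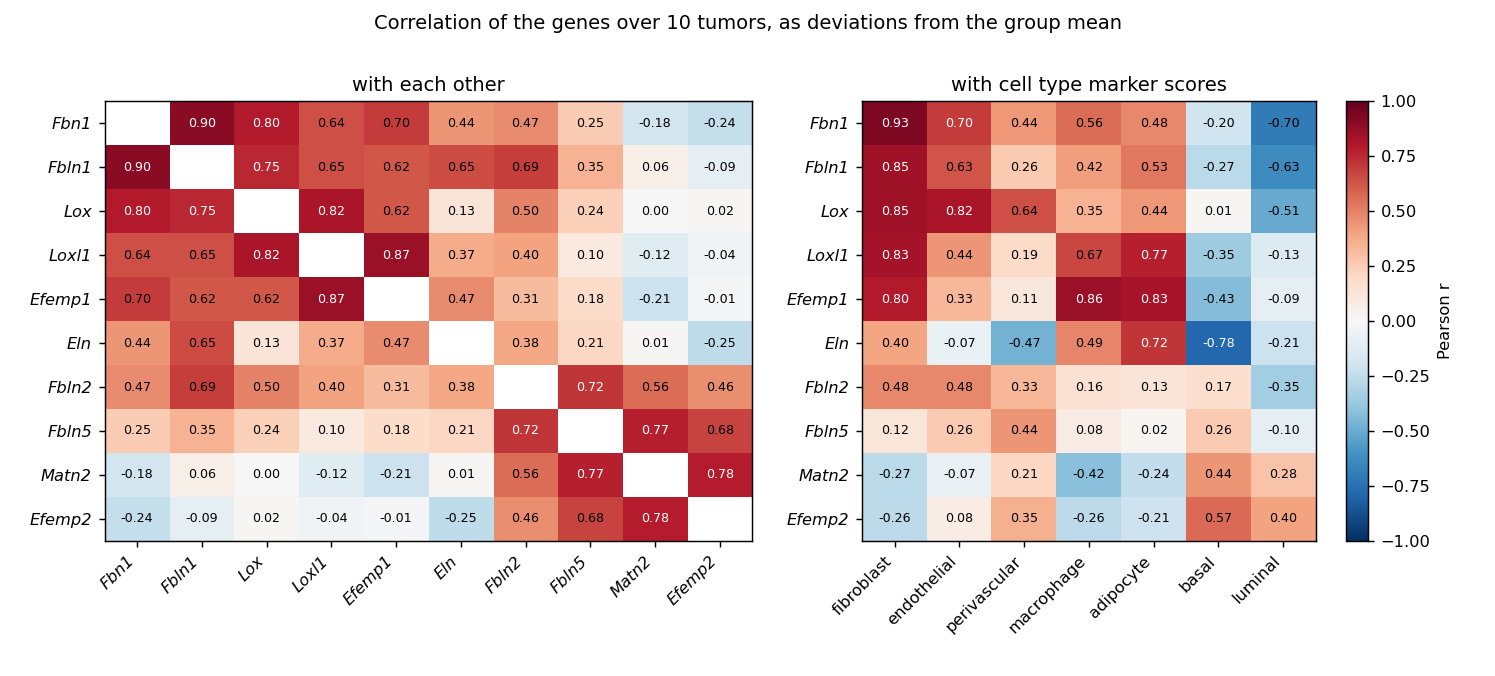
Pearson r of deviations from the group mean over 10 tumors, between the genes (left) and between the genes and 7 cell type marker scores (right), on a color scale from -1 in blue to 1 in red, with each r printed in its cell. *Fbn1*, *Fbln1*, *Lox*, *Loxl1* and *Efemp1* have r between 0.62 and 0.90 with each other over all tumors (0.12 to 0.88 without the 2 tumors farthest from the median of one gene of the pair) and of 0.80 to 0.93 with the fibroblast score. The 3 pairs of *Fbln5*, *Matn2* and *Efemp2* have r of 0.68 to 0.78 (0.58 to 0.76 without those tumors). *Fbln2* has r of 0.72 with *Fbln5*, 0.56 with *Matn2* and 0.46 with *Efemp2*.

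The non-member genes most like *Fbln5* over the 10 tumors were *Tgfbr3*, a co-receptor of transforming growth factor beta (r = 0.96), the antisense gene *Gm48529* (0.95), the adhesion gene *Kirrel* (0.94), the anion transporter gene *Slco3a1* (0.93) and the pseudogene *Gm18705* (0.92). *Gm48529* overlaps the smooth muscle gene *Tagln* on the other strand and *Gm18705* is a processed copy with a mean value of 20.1, so reads of both may belong elsewhere. Those most like *Matn2* were *Chst11*, a chondroitin sulfotransferase (r = 0.94), the nucleotide sugar transporter gene *Slc35b4* (0.93), the matrix protein gene *Vwa1* (0.93), the potassium channel gene *Kcnj15* (0.92) and the vasohibin gene *Vash1* (0.92). The genes most like *Fbln5* and *Matn2* were picked as the highest r over the tested genes and are given without a test. Of them, *Tgfbr3* overlaps 4 annotated genes, 1 of which is on the opposite strand. *Kirrel*, *Slco3a1*, *Chst11*, *Slc35b4*, *Vwa1* and *Kcnj15* also overlap annotated genes on the opposite strand, so some reads of these genes may belong elsewhere too.

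Per kilobase of the longest coding transcript and averaged over all 10 tumors, the level was highest for *Fbln2* (853 ± 129, SD), followed by *Eln* (688 ± 99.9), *Fbn1* (625 ± 210) and *Efemp2* (383 ± 38.4). *Lox* (227 ± 67.6), *Matn2* (178 ± 62.7), *Loxl1* (176 ± 33.4) and *Efemp1* (143 ± 65.2) came next, and *Fbln1* (101 ± 27.4) and *Fbln5* (94.8 ± 23.8) were the lowest. Every pair of neighbors in that order overlapped in range over the tumors. Within single tumors *Fbln2* was above *Eln*, *Fbn1* above *Efemp2* and *Efemp2* above *Lox* in 10 of 10 tumors, whereas *Matn2* was above *Loxl1* in 3 of 10. With the length of all annotated exons in place of the longest transcript, *Fbln2* was at 641 per kilobase, *Fbn1* at 616, *Eln* at 327 and *Matn2* at 102, below *Loxl1* and *Efemp1*, so the places of *Eln*, *Fbn1* and *Matn2* depend on the transcript model. For 5 of the 10 genes (*Efemp2*, *Eln*, *Fbn1*, *Lox* and *Matn2*) the annotation has a gene on the opposite strand. The libraries kept the strand, but whether the counting used it is not given in the sources used here, so reads of these partners cannot be told apart.

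The rest of the elastic fiber pathway was read from a list of 49 further genes, of which 46 were in the table and 44 passed the filter. Of these 44 genes, 0 rose and 0 fell at an adjusted p under 0.05 (limma; 0% of all tested genes did) and 0 had an unadjusted p under 0.05, where 2.28% of tested genes did. In gene trap tumors 17 were higher and 27 lower (61.4% lower, beside 48.6% of all tested genes), with a median log2 difference of -0.04. *Adamtsl2*, a regulator of microfibrils, had the smallest p of the list (log2 difference of -0.27, SE 0.13, unadjusted p = 0.0556, limma), from 343 to 459 in wildtype and from 264 to 398 in gene trap tumors. *Itgb3* and *Itgb5*, the beta subunits of integrins that bind fibulins and fibrillin, followed with log2 differences of -0.26 (SE 0.15) and -0.16 (SE 0.10).

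By role, of 13 tested microfibril and scaffold genes 9 were higher and 4 lower in gene trap tumors, with a median log2 difference of 0.06. Of 7 receptor genes 1 was higher and 6 lower, with a median of -0.12, and these include *Itgb1* and *Itgav*, integrin subunits with mean values of 14310 and 5334. All 7 tested matrilins and basement membrane partners were lower, with a median of -0.07 and a range from -0.45 to -0.04, among them fibronectin (*Fn1*, mean value of 9170) at -0.04. The direction of 5 of these 7 genes turned when 1 tumor was left out, as it did for 7 of the 13 microfibril and scaffold genes and 1 of the 7 receptor genes. The 8 cross-linking and processing genes divided into 4 higher and 4 lower, the 5 elastases into 2 and 3, and the 4 regulators of the microfibril into 1 and 3. With 1 tumor left out the direction turned for 7 of the 8 cross-linking and processing genes, 4 of the 5 elastases and 2 of the 4 regulators. None of these genes passed the test, so these counts describe directions only.

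The median r with the fibroblast score within genotypes was 0.48 for the microfibril and scaffold genes, 0.34 for the cross-linking genes, 0.05 for the matrilins and basement membrane partners and -0.36 for the receptors, beside 0.00 over all tested genes. Among the receptors, *Neu1*, *Ctsa* and *Glb1*, which are not integrin genes, had r of -0.79, -0.53 and -0.365. The integrin genes *Itgav*, *Itgb1*, *Itgb3* and *Itgb5* had r of -0.001, -0.03, -0.36 and 0.42. For the 10 members the median r was 0.64, and it was 0.34 without gene trap tumor 1 and 0.31 without the 2 farthest tumors. These medians describe the 10 tumors, and the difference between the groups of genes was not tested.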

How the data were processed

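Total RNA from mammary tumors was extracted with Trizol and sequenced from stranded total RNA libraries. The submitters' processing notes name Partek, STAR (version 2.7.8a), DESeq2 and genome build mm39, and the annotation and counter are not given in the sources used here. The deposited values are a normalized signal, estimated counts that the authors had scaled by the median ratio method, with 0 zeros, so whole reads, depth and the intervals that need them are not known, and precision rests on the number of tumors. The labels describe 16 tumors. Of the 16 columns, 10 matched a tumor by name and 6, named by animal numbers, were not used. Replicate numbers come from the labels, and no source says how many tumors one animal gave, so p-values measure the spread between these tumors.

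Symbols were matched for 22899 of 23609 gene IDs (97.0%). Values were taken as log2(value + 1), and limma (version 3.58.1, under R 4.3.3) was run with a variance trend on genes with a mean of at least 10, where p-values were Benjamini-Hochberg adjusted over all 21034 tested genes. Fold changes on this scale understate changes of low genes. A cell type score is the mean z score of the log2 values of its markers. Correlations used deviations from the group mean and exact permutation within groups. The planned family of 70 pairs of member and score is given only as counts, and the adjustment over all tested genes was added after seeing the data. The calculations were tested on simulated data. The members and lists were chosen with earlier results of these data known. Named genes were the members, *Resf1*, the 5 most similar genes of *Fbln5* and *Matn2*, the 3 pathway genes with the smallest p and the 3 with the highest mean, and the 2 most abundant markers of each list. Alternatives were other pseudocounts, filters, scalings, variance models, tumor weights, marker scores as covariates, the replicate number as a block and each tumor left out. The most abundant perivascular markers were *Mcam* (2332) and *Rgs5* (1929), the endothelial *Pecam1* (1186) and *Cdh5* (712), the adipocyte *Fabp4* (1827) and *Cfd* (1534), and the macrophage *Lyz2* (7421) and *C1qa* (3056). Of the adipocyte list 4 of 7 markers were matched, and of the other lists all. Figures were drawn with matplotlib.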

Additional observations from a re-analysis of the deposited data

Results flagged for a closer look

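In gene trap tumor 1, *Efemp1* was at 467.1; the rest of its group ranged from 203.4 to 251.5. *Fbn1* was at 1.29e+04 in the same tumor, with the others between 5310 and 7235. The fibroblast score of that tumor was 1.759, with the others between -0.3933 and -0.1667. Each was marked because the tumor's gap to its nearest neighbor, divided by the range of its group of 5, was above Dixon's critical value. Of 34 groups examined 3 were marked, where 1.7 would be by chance. All 3 are of the same tumor, and *Fbn1* and *Efemp1* correlated with the fibroblast score (r = 0.93 and 0.80), so they are not separate events. Whether the fibroblast markers and both genes were high for a shared reason was not tested.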

How the results depend on the processing

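The number of genes called between genotypes stayed at 0 in all 21 alternatives (304 to 692 genes had an unadjusted limma p under 0.05), and the number of pathway genes called stayed at 0. Between 4 and 9 of the 10 members were lower in gene trap tumors. The log2 difference of *Resf1* lay between -0.28 and -0.13, its smallest size with the basal score as a covariate (unadjusted limma p of 0.289). The difference of *Eln* moved from -0.19 to -0.44 with the same covariate, which itself differed between genotypes. Over the 70 pairs of member and score, 2 passed when adjusted over the pairs (*Fbn1* and *Fbln1* with the fibroblast score). This count became 1 with Spearman correlation, which was another pair (*Efemp1* with the adipocyte score, while *Fbn1* and *Fbln1* no longer passed), 0 without the 2 farthest tumors, 0 with adjustment over all tested genes (chosen after seeing the data) and 0 to 2 when 1 tumor was left out. The r of *Fbln5* with the fibroblast score turned to -0.68 without the 2 farthest tumors and to -0.40 without gene trap replicate 1 (range -0.40 to 0.53 with 1 tumor left out), that of *Fbln2* to -0.21 without gene trap replicate 1 (range -0.21 to 0.70), and that of *Efemp2* to 0.31 with division by the column total; the cause was not tested. With 4 tumors left in a group these fits pool the spread of both groups.

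The sources used here do not say whether same-numbered tumors of the groups were paired, and the main fits did not pair them. The correlations of their deviations were 0.10, -0.003046, -0.16, 0.15 and -0.14, which cannot show how the animals were matched. With the replicate number as a block, 0 genes were called and 426 had an unadjusted p under 0.05, so no call changed. The log2 difference of *Resf1* was -0.22 (unadjusted limma p of 0.0447), and those of the members stayed as given. Both groups hold the same replicate numbers, so the block can change the standard errors but not these differences.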
